A study of Mus musculus with 6 samples.

Results

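The BCL2 family decides whether a cell keeps or loses the integrity of its mitochondria. The 10 genes described here, Bcl2, Bcl2l1, Mcl1, Bax, Bak1, Bcl2l11, Bbc3, Pmaip1, Bid and Bad, were taken by symbol from the 22298 genes listed for each library, and all 10 passed the filter on low counts that left 14121 genes to test. They fall into 3 pro-survival and 7 pro-death members. Messenger RNA was profiled in thymocytes labelled double-negative, sorted from the thymus of untreated C57BL/6 mice. Toxf/f mice carry recombination sites on both copies of Tox, which encodes a nuclear factor needed for the CD4 T cell lineage. Toxf/fPdcd1Cre mice carry the same floxed alleles together with a Cre named for Pdcd1, the gene of the receptor PD-1, so the floxed gene is common to both groups. The age was 3 weeks for replicates 1 and 2 of each genotype, and 4 weeks for replicate 3. The labels do not say whether samples came from separate mice or from pools, so p-values measure the spread between these libraries, which may be technical.

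The deposited tables for Toxf/f replicates 1 and 2 were identical and both carry the column name WT-2, so they were counted as 1 library, called here Toxf/f replicate 1. The comparison thus rests on 2 distinct Toxf/f libraries and 3 Toxf/fPdcd1Cre libraries, of 14245492 to 16199195 estimated counts each. Tox stood at 31.1 and 27.5 FPKM (fragments scaled to transcript length and library depth) in Toxf/f and at 4.98, 4.01 and 3.34 FPKM in Toxf/fPdcd1Cre libraries. The RNA of Cd4 and Cd8a goes against the label double-negative, at 237 to 306 FPKM and 473 to 639 FPKM in the 5 libraries. Markers of early double-negative stages differed in level. Kit, a marker of the earliest of these stages, lay between 1.90 and 5.0 FPKM, and Hes1 between 2.86 and 5.64 FPKM. Il2ra lay between 20.41 and 32.05 FPKM, Ptcra between 22.78 and 35.62 FPKM and Notch1 between 20.2 and 38.47 FPKM. The protocol names DN2 cells and the title the whole double-negative population. Toxf/fPdcd1Cre replicate 1 held 1 count of the Y-linked gene Ddx3y, against 843 to 1354 counts in the other libraries.

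Pro-survival proteins such as BCL2, BCL-XL (encoded by Bcl2l1) and MCL1 hold back BAX and BAK, the effectors that open pores in the outer mitochondrial membrane and release cytochrome c. BH3-only proteins, among them BIM (Bcl2l11), PUMA (Bbc3), NOXA (Pmaip1), BID and BAD, sense stress or lost survival signals and block the pro-survival proteins or engage the effectors. In the thymus the family is known to shift with development: double-positive thymocytes depend on BCL-XL and MCL1 and carry little BCL2, mature single-positive T cells regain BCL2, and BIM is the main killer of cells that receive too strong a signal through the T cell receptor.

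The comparison of genotypes found 1 changed member. Bcl2 was about 2-fold lower in Toxf/fPdcd1Cre libraries, and none of the other 9 members passed the test in either direction. Pmaip1 had a difference of similar size that did not pass. Of the 14121 tested genes, 1.51% were called lower and 0.135% higher (1.64% in either direction, at a Benjamini-Hochberg adjusted p below 0.05 from edgeR's quasi-likelihood fit), beside 1 of 10 members. At an unadjusted p below 0.05 the count was 2 of 10 members, Bcl2 and Pmaip1, beside 10.3% of all tested genes. The median log2 fold change was -0.13 over the 10 members and 0.03 over all tested genes, and -0.04 and -0.01 without Toxf/fPdcd1Cre replicate 1.

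The stretches of DNA just upstream of the 3 pro-survival genes are shown because these genes share a role but not a call. Each is the 250 bases before the annotated start, 5′ to 3′ on the gene's strand, from the RefSeq promoter table of build GRCm38.p6, which held 9 of the 10 members. For Bcl2l1, which has 3 starts in that table, the start farthest upstream is used. The Bcl2 window is chr1:106714291-106714540 on the minus strand, the Bcl2l1 window chr2:152831729-152831978 on the minus strand and the Mcl1 window chr3:95658471-95658720 on the plus strand. Capitals mark matches on either strand to GGGCGG (GC box), CANNTG (E-box), TGACGTCA (cAMP response element), TGTGGT (RUNX) and TTCNNNGAA (STAT).
Bcl2: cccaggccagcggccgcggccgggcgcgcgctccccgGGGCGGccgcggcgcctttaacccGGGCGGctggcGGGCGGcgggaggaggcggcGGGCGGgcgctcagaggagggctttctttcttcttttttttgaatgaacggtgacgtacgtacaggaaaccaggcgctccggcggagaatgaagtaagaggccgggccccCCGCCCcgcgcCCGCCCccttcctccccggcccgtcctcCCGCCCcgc
Bcl2l1: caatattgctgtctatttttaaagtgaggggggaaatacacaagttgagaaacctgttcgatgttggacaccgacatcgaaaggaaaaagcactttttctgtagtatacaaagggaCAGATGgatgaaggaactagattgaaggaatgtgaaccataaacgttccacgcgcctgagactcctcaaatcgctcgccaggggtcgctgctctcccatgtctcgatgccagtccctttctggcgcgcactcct
Mcl1: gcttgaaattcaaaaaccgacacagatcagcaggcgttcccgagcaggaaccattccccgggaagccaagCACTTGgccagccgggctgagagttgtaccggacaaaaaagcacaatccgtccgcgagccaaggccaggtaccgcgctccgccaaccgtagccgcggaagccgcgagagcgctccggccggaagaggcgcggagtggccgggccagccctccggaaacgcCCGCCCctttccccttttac
The Bcl2 window held 7 GC boxes and none of the other 4 motifs, with 74.8% G and C. The Mcl1 window held 1 GC box and 1 E-box, with 64.4% G and C, and the Bcl2l1 window held 1 E-box alone, with 47.6% G and C. Of all 32851 windows of this length in the table, 32.7% held a GC box, 66.2% an E-box, 1.55% a cAMP response element, 14.0% a RUNX match and 7.02% a STAT match. These letters describe the windows and say nothing of whether a factor binds them.

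Bcl2 (ENSMUSG00000057329), the founding pro-survival member, lies on chromosome 1 from 106538178 to 106714274 on the minus strand in GRCm38 and overlaps no other listed gene. Its 2 Toxf/f libraries held 9.57 and 9.56 FPKM, against 4.36, 4.60 and 3.97 FPKM in those with Pdcd1Cre. The genotypes did not overlap, and the spread within each was small beside the gap between them. Estimated counts were 1024 and 1067 against 441, 525 and 418. In CPM, counts scaled to the TMM-adjusted depth of each library, the level was 64.9 ± 0.911 (SD, n = 2) in Toxf/f and 30.8 ± 2.45 (SD, n = 3) in Toxf/fPdcd1Cre. The fall was 2.11-fold, a log2 fold change of -1.08 ± 0.134 (SE) with a 95% interval of -1.37 to -0.78 and, from edgeR, an adjusted p of 0.00240, the 29th smallest p of all genes tested. A two-sided exact permutation test on log2(FPKM + 1) gave p = 0.1, the smallest value that 10 splits of 5 libraries allow. At 3 weeks of age the 2 Toxf/fPdcd1Cre libraries stood at log2 differences of -1.11 and -0.96 from the Toxf/f library of that age, and at 4 weeks the difference was -1.15. The call ended when either Toxf/f library was left out, which leaves 1 library in that group (log2 fold change -1.06 without replicate 1 and -1.09 without replicate 3, with edgeR's adjusted p = 0.0552 and 0.0587), and it held without any single Toxf/fPdcd1Cre library.

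**Figure D1:**
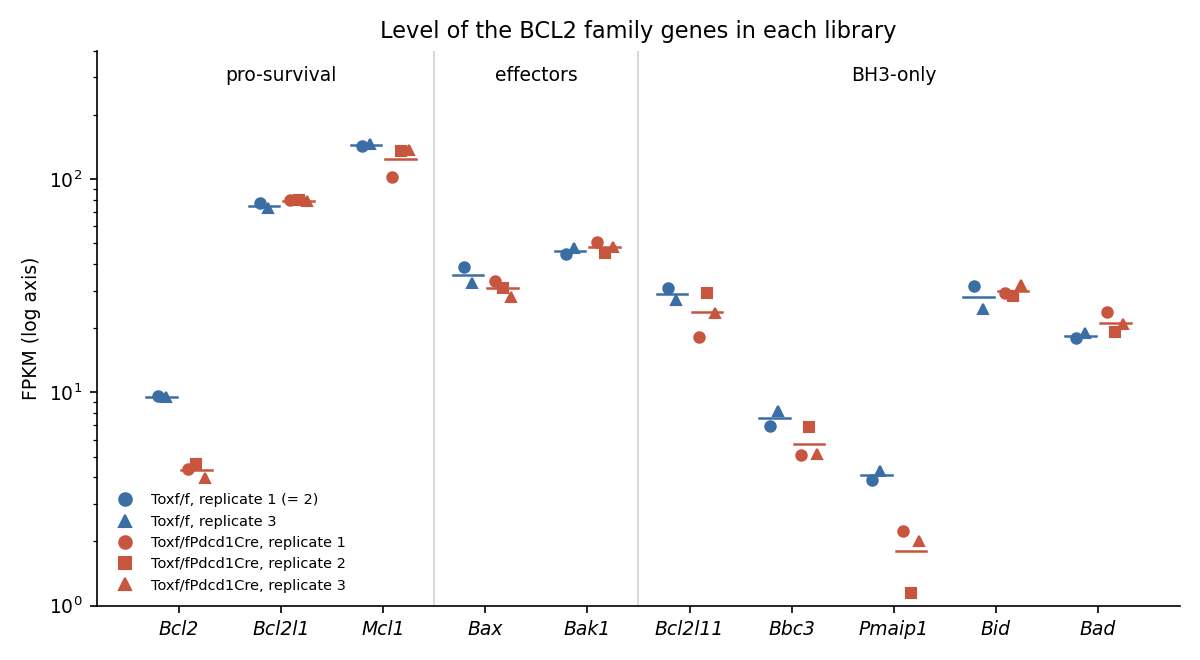
Level of each BCL2 family gene in FPKM on a log axis, with 1 point per distinct library (blue, Toxf/f; red, Toxf/fPdcd1Cre; circles, squares and triangles for replicates 1, 2 and 3) and a bar at the mean of each genotype. Bcl2 lies at 9.56 and 9.57 FPKM in Toxf/f and between 3.97 and 4.60 in Toxf/fPdcd1Cre libraries, and Mcl1 and Bcl2l1 are the most abundant members in all 5.

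Bcl2l1, whose main product BCL-XL keeps double-positive thymocytes alive, did not pass the test. It held 76.9 and 73.2 FPKM in Toxf/f and 79.5, 79.4 and 78.7 FPKM in Toxf/fPdcd1Cre libraries. These values did not overlap but lay close together. The log2 fold change was 0.12 ± 0.126 (SE), with a 95% interval of -0.15 to 0.40 and an adjusted p of 0.851 (edgeR). It was 0.19 without Toxf/f replicate 1 and 0.06 without Toxf/f replicate 3. Like Bcl2, Bcl2l1 reached the smallest p of the exact permutation test (p = 0.1).

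Mcl1, a short-lived protein needed at almost every stage of lymphocyte life, was the most abundant member. Its level was 143 and 146 FPKM in Toxf/f and 102, 135 and 137 FPKM in Toxf/fPdcd1Cre libraries. In FPKM every Toxf/fPdcd1Cre value lay below both Toxf/f values, and replicate 1 lay well below replicates 2 and 3. In CPM the genotypes overlapped, at 406 ± 9.78 (SD, n = 2) and 373 ± 64.3 (SD, n = 3), and the log2 fold change was -0.12 ± 0.161 (SE, adjusted p = 0.901, edgeR). Without replicate 1, 2 or 3 of Toxf/fPdcd1Cre it was -0.03, -0.20 and -0.19.

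The effectors did not pass the test. Bax held 38.8 and 32.5 FPKM in Toxf/f and 33.4, 30.9 and 28.1 FPKM in Toxf/fPdcd1Cre libraries, and Bak1 held 44.4 and 47.7 against 50.8, 45.2 and 48.2 FPKM. For both genes the genotypes overlapped. The log2 fold changes were -0.18 ± 0.148 for Bax and 0.04 ± 0.127 for Bak1 (SE; adjusted p = 0.791 and 0.968, edgeR). Bax depended on which Toxf/f library was kept, at -0.02 without replicate 1 and -0.32 without replicate 3. The sign for Bak1 turned with a stricter count filter (-4.08e-05), so no direction is given for it. Bax overlaps Gm45808 on its own strand, where the strand of a read cannot separate the genes. Bak1 overlaps Ggnbp1 and Gm50253 on the opposite strand. Without a stated use of strand, reads of these neighbours cannot be told apart from those of Bak1.

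Among the BH3-only genes Pmaip1, the gene of NOXA, which binds MCL1 and marks it for destruction, stood lowest in level. It held 3.90 and 4.30 FPKM in Toxf/f and 2.24, 1.15 and 2.0 FPKM in Toxf/fPdcd1Cre libraries. All 3 Toxf/fPdcd1Cre values were below both Toxf/f values. Estimated counts were 158 and 184 against 87, 51 and 83, and the log2 fold change was -1.09 ± 0.284 (SE) with a 95% interval of -1.72 to -0.47. The unadjusted p was 0.00245 and the adjusted p 0.0999 (edgeR), so Pmaip1 missed the threshold. DESeq2 and a fit without the count filter called it (adjusted p = 0.0437 and 0.0338), as did edgeR with the identical files counted as separate libraries (adjusted p = 0.0496).

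Bcl2l11, the gene of BIM, varied most between the Toxf/fPdcd1Cre libraries among the abundant BH3-only genes. Its level was 30.9 and 27.2 FPKM in Toxf/f and 18.3, 29.3 and 23.6 FPKM in Toxf/fPdcd1Cre libraries. Toxf/fPdcd1Cre replicate 2 lay within the Toxf/f range and replicate 1 lay lowest. The log2 fold change was -0.32 ± 0.212 (SE, adjusted p = 0.708, edgeR), and it was -0.14 without Toxf/fPdcd1Cre replicate 1, -0.53 without replicate 2 (adjusted p = 0.744 and 0.267). Leaving out Toxf/f replicate 1 gave -0.19 (adjusted p = 0.921). No label says that the replicate numbers pair the libraries. With that number as a block, the log2 fold change was -0.56 and passed (adjusted p = 0.0306, edgeR).

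Bbc3, the gene of the p53 target PUMA, held 6.93 and 8.16 FPKM in Toxf/f and 5.11, 6.87 and 5.12 FPKM in Toxf/fPdcd1Cre libraries. Bid, whose product links death receptors to mitochondria, held 31.5 and 24.5 against 29.2, 28.4 and 31.9 FPKM. Bad, which is kept inactive by growth factor signals, held 18.0 and 19.0 against 23.8, 19.2 and 20.9 FPKM. The Toxf/f values of Bbc3 were above those of Toxf/fPdcd1Cre in FPKM but overlapped with them in CPM. The genotypes overlapped for Bid, and Bad was higher in all 3 Toxf/fPdcd1Cre libraries by a small margin. The log2 fold changes were -0.13 for Bbc3, 0.14 for Bid and 0.20 for Bad (adjusted p = 0.928, 0.864 and 0.769, edgeR), with 95% intervals of -0.62 to 0.36, -0.20 to 0.48 and -0.14 to 0.54. Bbc3 was -0.06 without Toxf/fPdcd1Cre replicate 1, -0.30 without replicate 2 and -0.07 without Toxf/f replicate 3, and Bad was 0.13 without Toxf/fPdcd1Cre replicate 1. Bid was 0.07 when Toxf/fPdcd1Cre replicate 3 was left out. It was 0.36 with Toxf/f replicate 1 left out and turned to -0.05 with Toxf/f replicate 3 left out. Bid overlaps Bcl2l13 and Bad overlaps Gpr137, each on the opposite strand.

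In CPM the genotypes did not overlap for 4 of the 10 members, Bcl2 and Pmaip1 below and Bcl2l1 and Bad above, beside 26.2% of all genes tested. The 95% intervals of the 8 members other than Bcl2 and Pmaip1 all lay between -0.78 and 0.54 on the log2 scale. Changes larger than that would have been outside these intervals, and smaller ones were not resolved with 5 libraries.

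**Figure D2:**
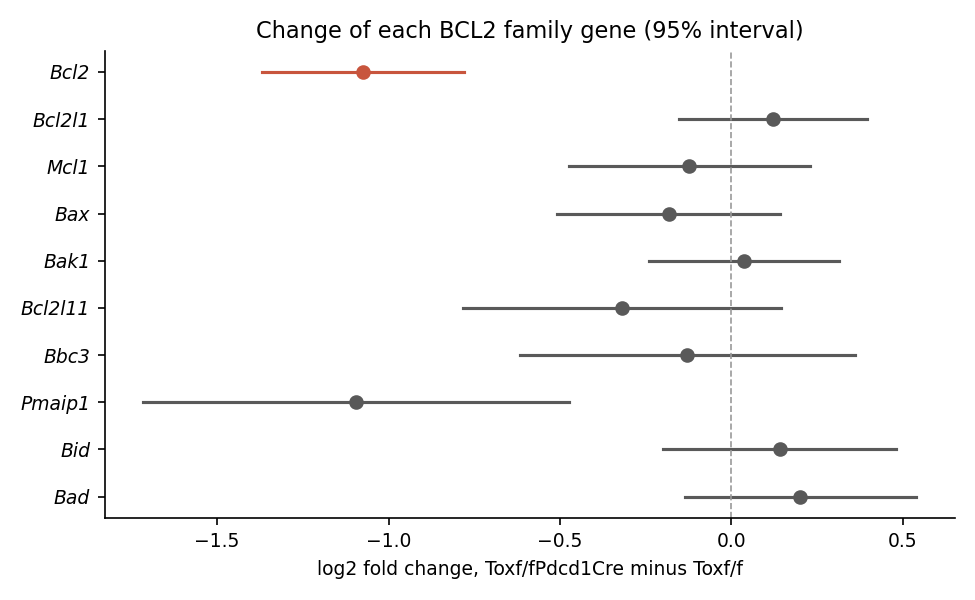
Log2 fold change of each member, Toxf/fPdcd1Cre minus Toxf/f, with its 95% interval from edgeR's quasi-likelihood fit (red, adjusted p below 0.05; grey, not past it). Bcl2 at -1.08 and Pmaip1 at -1.09 stand to the left of the other members, and only Bcl2 passed the adjusted threshold.

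The order of the members by FPKM, a scale corrected for gene length, was led by Mcl1 and Bcl2l1 in every library. In Toxf/f libraries Bak1 came next, then Bax, with values that did not overlap. Bcl2l11 and Bid followed and could not be ordered, since their Toxf/f values overlapped (27.2 to 30.9 and 24.5 to 31.5 FPKM). Bad, Bcl2, Bbc3 and Pmaip1 came last in that order without overlap between neighbours. Bcl2 therefore lay above Bbc3 in both Toxf/f libraries (9.56 and 9.57 against 6.93 and 8.16 FPKM). In Toxf/fPdcd1Cre libraries it lay below Bbc3, at no more than 4.60 FPKM against at least 5.11 FPKM, and above Pmaip1 in all 3.

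Pro-survival and pro-death transcripts were compared as sums of FPKM in each library, as a description with no test. The 3 pro-survival genes summed to 229.5 and 228.9 FPKM in Toxf/f and to 185.9, 219.1 and 219.6 FPKM in Toxf/fPdcd1Cre libraries. The 7 pro-death genes summed to 174 and 163 against 163, 161 and 160 FPKM. The ratio of the sums was 1.32 and 1.40 in Toxf/f and 1.14, 1.36 and 1.37 in Toxf/fPdcd1Cre libraries, so 2 of the 3 Toxf/fPdcd1Cre libraries lay between the Toxf/f values. Mcl1 made up 54.9% to 63.9% of the pro-survival sum. With Mcl1 left out, the ratio was 0.496 and 0.506 in Toxf/f and 0.515, 0.522 and 0.518 in Toxf/fPdcd1Cre libraries, slightly higher in all 3. Bcl2 itself made up 4.17% and 4.18% of the pro-survival sum in Toxf/f and 2.35%, 2.10% and 1.81% in Toxf/fPdcd1Cre libraries, a small part of the sum in every library.

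Ratios of single members were described in the same way. Bcl2l1 exceeded Bcl2 by 8.04 and 7.65 times in Toxf/f and by 18.2, 17.3 and 19.8 times in Toxf/fPdcd1Cre libraries. Bcl2 relative to Bax was 0.247 and 0.294 in Toxf/f and 0.130, 0.149 and 0.141 in Toxf/fPdcd1Cre libraries. Relative to Bcl2l11, whose protein BCL2 holds in check, Bcl2 was 0.310 and 0.351 against 0.239, 0.157 and 0.169. The ratio of Bcl2l1 to Bcl2l11 went the other way, from 2.49 and 2.69 to 4.35, 2.71 and 3.34. Mcl1 relative to its antagonist Pmaip1 stood at 36.7 and 34.0 in Toxf/f and at 45.5, 117 and 68.4 in Toxf/fPdcd1Cre libraries. Other ratios overlapped between genotypes: Mcl1 over Bcl2l11 was 4.63 and 5.37 against 5.59, 4.61 and 5.81, and Bcl2l1 over Bak1 was 1.73 and 1.53 against 1.57, 1.76 and 1.63. Of 11 single-gene ratios computed, these 2 overlapped and 9 did not, and no share over other gene pairs was computed. Among the ratios without Bcl2 or Pmaip1, only Bcl2l1 over Bcl2l11 and Bcl2l1 over Bax did not overlap. The ratios share genes and rest on the values given above.

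**Figure D3:**
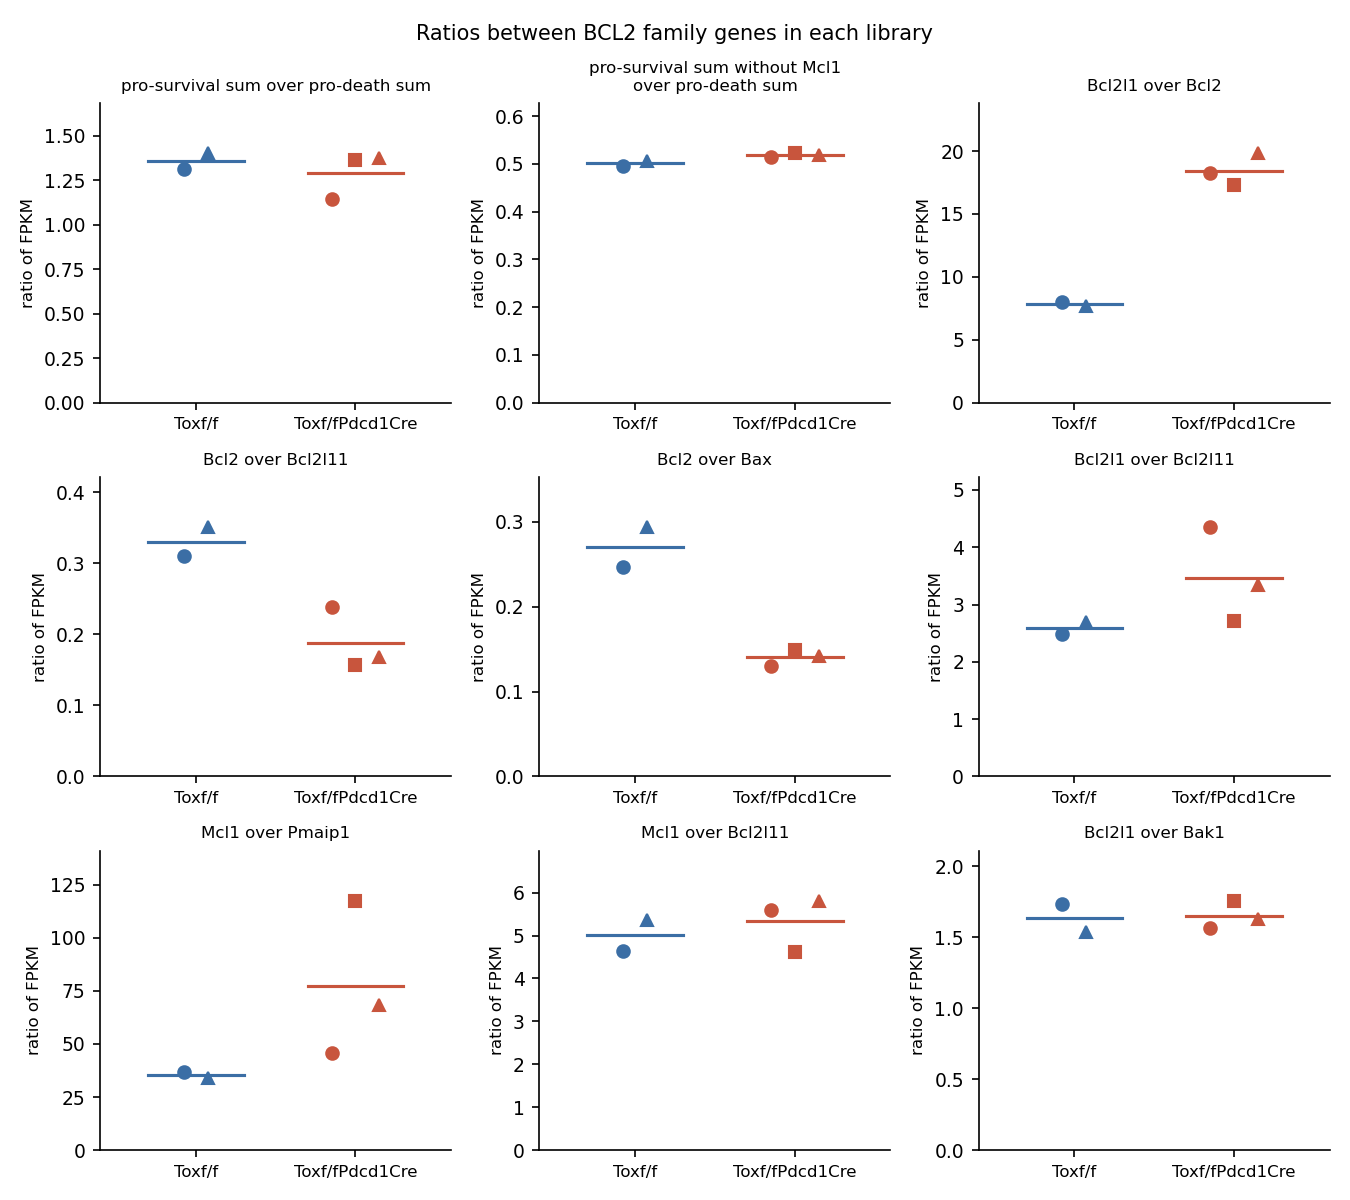
Ratios of FPKM between members or sums of members in each library, from 0 on every axis, with a bar at the genotype mean (blue, Toxf/f; red, Toxf/fPdcd1Cre; circle, square and triangle for replicates 1, 2 and 3). The ratio of pro-survival to pro-death sums overlaps between genotypes (1.14 to 1.40), as do Mcl1 over Bcl2l11 and Bcl2l1 over Bak1, while Bcl2l1 over Bcl2 is 7.65 and 8.04 in Toxf/f and 17.3 to 19.8 in Toxf/fPdcd1Cre libraries.

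Further genes of the apoptosis machinery were read from 7 lists with 84 distinct genes, of which 81 were tested. Of these 4 fell and 0 rose, beside 1.51% and 0.135% of all tested genes, and all 4 belong to the list of survival inputs. The median log2 fold change over the 81 was -0.03. No gene passed among 13 tested further BCL2 family genes, 13 apoptosome and caspase genes, 5 inhibitor of apoptosis genes, 10 death receptor genes, 11 p53 pathway genes and 10 partners of BCL2 and MCL1 (list medians -0.09, 0.05, -0.03, -0.05, -0.14 and 0.12). Without Toxf/fPdcd1Cre replicate 1 these medians were -0.29, 0.02, -0.11, -0.02, -0.15 and 0.09. Among the apoptosome and caspase genes, Casp2 averaged 47.9 FPKM over all libraries. In the other lists, Birc5 and Birc6 averaged 120 and 57.4 FPKM, the death receptors Fas and Tnfrsf1a 59.3 and 41.3 FPKM, Trp53inp1 and Trp53 158 and 81.1 FPKM, and the mitochondrial channels Vdac1 and Vdac2 138 and 119 FPKM.

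The 4 genes that fell share only the list name of survival inputs, and whether each favours survival or death in these cells was not tested. Nr4a1, a nuclear receptor induced by T cell receptor signals, held 36.1 and 37.0 FPKM in Toxf/f and 12.2, 17.3 and 16.6 FPKM in Toxf/fPdcd1Cre libraries (log2 fold change -1.18 ± 0.172 SE, adjusted p = 0.00536, edgeR). Rel, a subunit of NF-kappa B, held 6.58 and 9.09 against 4.28, 3.99 and 4.22 FPKM. Lef1, a partner of beta-catenin with known roles in thymocyte survival, held 147 and 141 against 81.2, 76.9 and 89.4 FPKM. Il7r, the receptor chain for interleukin 7, a cytokine known to sustain BCL2 in lymphocytes, held 14.0 and 15.6 against 10.6, 6.78 and 8.18 FPKM. For all 4 genes the genotypes did not overlap. The log2 fold changes were -0.85 for Rel, -0.70 for Lef1 and -0.75 for Il7r (adjusted p = 0.0172, 0.0288 and 0.0496, edgeR). In the same list Tcf7 and Myb were the most abundant, at means of 1304 and 261 FPKM. Nr4a1, Lef1 and Il7r lost their calls without either Toxf/f library (adjusted p = 0.107 and 0.130, 0.264 and 0.294, and 0.249 and 0.464), and Rel without replicate 3 of Toxf/f or of Toxf/fPdcd1Cre (adjusted p = 0.320 and 0.0542). When Toxf/fPdcd1Cre replicate 2 was left out, the calls of Lef1 and Il7r ended (adjusted p = 0.0677 and 0.0934), as did that of Il7r without replicate 3 (adjusted p = 0.162). Il7r was the least stable of the 4, past the threshold in 7 of 18 alternatives, and missed it with RLE or upper-quartile scaling, at least 10 CPM in 2 libraries, and age as a covariate (adjusted p = 0.0571, 0.0828, 0.0717 and 0.113). With age as a covariate Lef1 also missed it (adjusted p = 0.0686). On log2(FPKM + 1), Rel and Il7r missed it (adjusted p = 0.0862 and 0.104, limma).

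**Figure D4:**
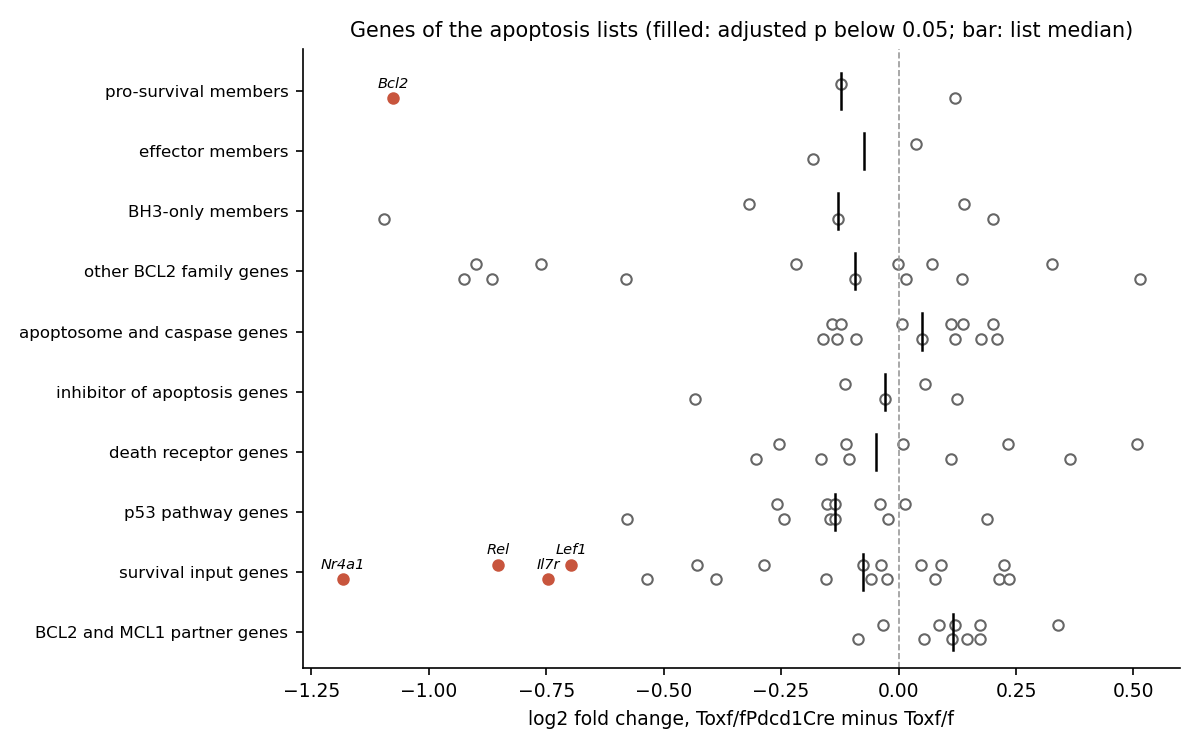
Log2 fold change, Toxf/fPdcd1Cre minus Toxf/f, of every tested gene of the member classes and apoptosis lists, with 1 circle per gene (filled, adjusted p below 0.05 in edgeR; open, not past it) and a black bar at each list's median. The filled points are Bcl2 among the members and Nr4a1, Rel, Il7r and Lef1 among the survival inputs, and list medians lie between -0.14 and 0.12.

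Within the further BCL2 family genes the A1 paralogues and Bmf were looked at because of their values. Bcl2a1b, a pro-survival gene induced by NF-kappa B in lymphocytes and myeloid cells, held 22.4 and 33.4 FPKM in Toxf/f, 28.6 FPKM in Toxf/fPdcd1Cre replicate 1, and 7.48 and 7.94 FPKM in replicates 2 and 3. Bcl2a1d and Bcl2a1a showed the same split, with replicate 1 at 19.7 and 5.94 FPKM against 4.21 to 5.24 and 1.53 to 1.79 FPKM in the other Toxf/fPdcd1Cre libraries. These copies are nearly identical and the counting may split their reads, which makes the value of each copy uncertain. Their log2 fold changes were -0.90, -0.86 and -0.93 (adjusted p = 0.521, 0.609 and 0.577, edgeR). Without Toxf/fPdcd1Cre replicate 1 they became -1.80, -1.88 and -1.80 and passed (adjusted p = 0.00586, 0.00611 and 0.0217), as did Bcl2l14, a divergent family member, and Cdkn1a, the p53 target p21 (log2 fold changes -1.10 and -0.88, adjusted p = 0.0432 and 0.0269). The number of called genes on the apoptosis lists then went from 4 of 81 to 9 of 80, beside 4.21% of all tested genes called lower without that library. The number of called members was 1, Bcl2, with or without it. Bmf, a BH3-only gene, held 39.9 and 48.3 FPKM in Toxf/f and 54.6, 84.3 and 59.0 FPKM in Toxf/fPdcd1Cre libraries. In CPM it held 182 and 191 against 190, 378 and 230, with replicate 2 highest. Its log2 fold change of 0.51 ± 0.238 (SE) did not pass (adjusted p = 0.495, edgeR) and was 0.17 without Toxf/fPdcd1Cre replicate 2. It was 0.17 with the replicate block as well, and 0.66, past the threshold, with the block in which the shared Toxf/f library is replicate 2 (adjusted p = 0.909 and 0.0176).

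The tables also carry a pathway term for apoptosis, given to 154 genes, of which 133 were tested. This term was read after the other results were seen. Of the 133 genes 5 fell and 0 rose, beside 1.51% and 0.135% of all tested genes, with a median log2 fold change of -0.03. Without Toxf/fPdcd1Cre replicate 1, 11 of 132 fell, beside 4.21% of all tested genes. Of the 5 genes, 4 are outside the lists above. Traf1, an adaptor of tumour necrosis factor receptors, held 25.4 and 24.1 CPM in Toxf/f and 12.4, 6.89 and 7.02 CPM in Toxf/fPdcd1Cre libraries (log2 fold change -1.49 ± 0.248 SE, adjusted p = 0.0115, edgeR). The stress-response gene Gadd45b and the lysosomal proteases Ctss and Ctsz had log2 fold changes of -1.45, -1.06 and -0.62 (adjusted p = 0.0208, 0.00458 and 0.0348, edgeR), and Bcl2 was the fifth. All 4 lost their calls without Toxf/f replicate 3 (adjusted p = 0.159 to 0.326), and Traf1, Gadd45b and Ctsz also without Toxf/f replicate 1 (adjusted p = 0.160 to 0.356). Leaving out Toxf/fPdcd1Cre replicate 3 ended the calls of Gadd45b and Ctsz (adjusted p = 0.0745 and 0.0989), and leaving out replicate 2 that of Ctsz (adjusted p = 0.0597).

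Some markers of cell types that differ in their BCL2 family genes moved with genotype. The counts of called markers below stand beside 1.51% of all tested genes called lower and 0.135% called higher. In bulk samples fewer cells of a type and less RNA per cell cannot be told apart. Of 8 markers of mature single-positive T cells, which are known to carry more Bcl2 than double-positive cells, 6 fell and 0 rose. The 6 were Ccr7, S1pr1, Klf2, Il7r, Gimap3 and Foxp3. Il7r is also counted among the survival inputs and the early double-negative markers. The summed level of the 8 markers was 620 and 654 FPKM in Toxf/f and 458 to 514 FPKM in Toxf/fPdcd1Cre libraries. Ccr9 was the most abundant of the 8, at 414 and 409 FPKM in Toxf/f and 326, 360 and 397 FPKM in Toxf/fPdcd1Cre libraries. It dominated every sum, overlapped in CPM and was not called (log2 fold change -0.12, adjusted p = 0.897, edgeR). Foxp3, which defines regulatory T cells, held 2.48 and 3.69 FPKM in Toxf/f and 0.12, 0.14 and 0 FPKM in Toxf/fPdcd1Cre libraries. Of 9 double-positive markers 1 fell, Cd69, and the summed level overlapped (3240 and 3705 against 3240 to 4016 FPKM). Of 9 early double-negative markers 2 fell, Cd44 and Il7r, at summed levels that overlapped (115 and 150 against 121 to 159 FPKM). Of the 9 log2 fold changes 4 were below 0 and 5 above. Ptcra and Notch3 were higher without overlap in CPM, at log2 fold changes of 0.42 and 0.63. Neither was called (adjusted p = 0.342 and 0.321, edgeR). Of 8 B cell and plasma cell markers 2 fell, Igkc and Jchain, with sums of 356 and 287 against 44.7 to 69.5 FPKM. Igkc alone held 295 and 214 FPKM in Toxf/f and 13.2, 34.1 and 19.2 FPKM in Toxf/fPdcd1Cre libraries, so it dominated the Toxf/f sums. The 8 log2 fold changes ran from -3.80 to 0.07, with 7 below 0. Of 8 myeloid and dendritic cell markers 3 fell, Cd74, H2-Eb1 and Flt3, with sums of 1353 and 1455 against 689 to 806 FPKM. Cd74 alone held 753 and 862 FPKM in Toxf/f and 537, 459 and 402 FPKM in Toxf/fPdcd1Cre libraries, so it dominated every sum. Of these 8 log2 fold changes 7 were below 0, and that of Adgre1 was 0.29 (adjusted p = 0.554, edgeR). Of the 7 tested markers of natural killer and gamma-delta T cells 4 rose, Klrb1c, Klrk1, Trdc and Cd163l1. This list summed to 69.2 and 67.2 against 92.0 to 161 FPKM, highest in Toxf/fPdcd1Cre replicate 1. Of the 7 log2 fold changes 6 were above 0. Nkg7 went the other way without overlap (15.53 and 19.55 against 11.19, 11.24 and 6.61 FPKM) and was not called (adjusted p = 0.215, edgeR). Thymic epithelial and stromal markers summed to 880 and 1025 against 886 to 1112 FPKM, with 1 of 8 lower, and erythroid markers to 1661 and 2335 against 761 to 1601 FPKM, with 0 of 5 tested called. None of these markers was at 0 in every library, and their part in the differences of Bcl2, Pmaip1 and the A1 paralogues was not tested.

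**Figure D5:**
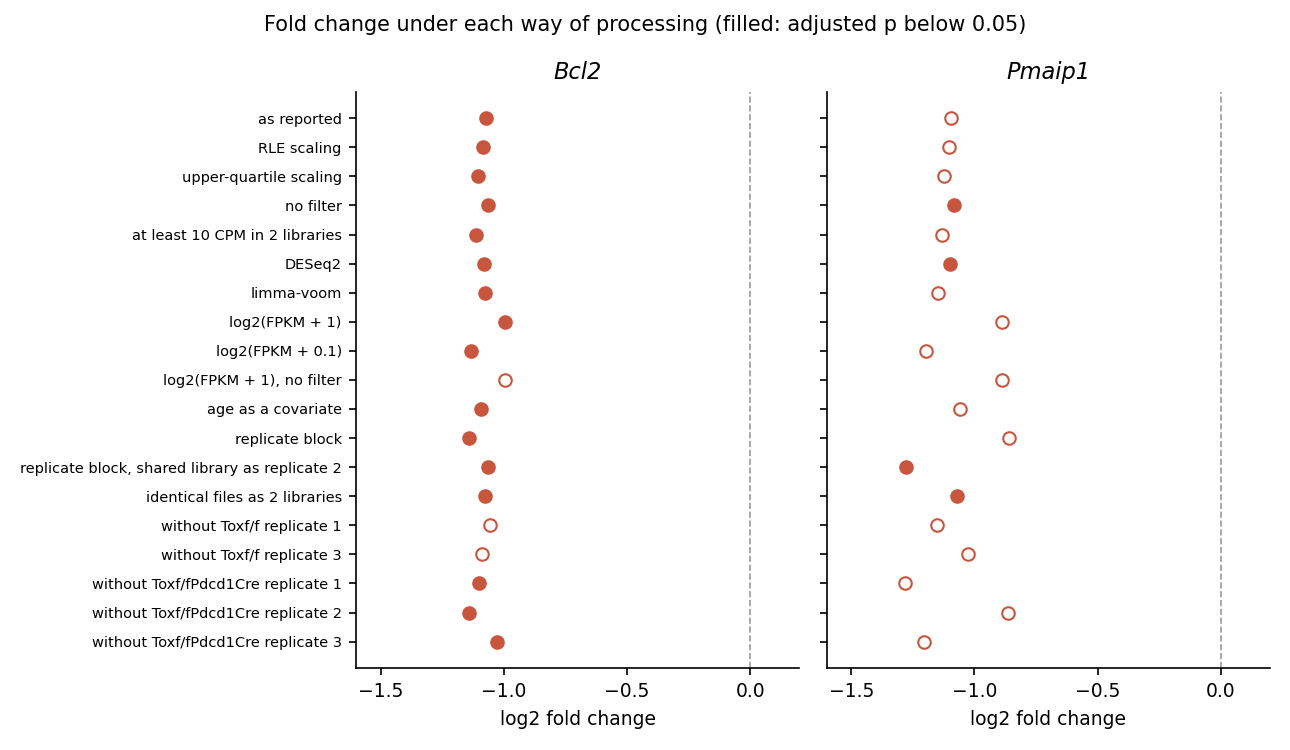
Log2 fold change of Bcl2 and Pmaip1 as reported and under each of 18 alternatives (filled, adjusted p below 0.05; open, not past it). Bcl2 stays between -1.14 and -0.99 and is past the threshold in 15 of 18, and Pmaip1 stays between -1.28 and -0.86 and is past it in 4 of 18.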

How the data were processed

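Gene-level tables of 6 samples were used. Estimated counts were deposited by the authors with 8.81% to 9.84% of values not whole per library, and FPKM values were deposited beside them, per the file headers. The submitters' processing notes name fastp 0.18.0, HISAT2 and StringTie 1.3.1. Not given in the sources used here: genome build, annotation, counting tool and strand. The identical Toxf/f tables were counted as 1 library. Counts were rounded, filtered with filterByExpr, scaled by TMM and tested with edgeR 4.0.16 (quasi-likelihood, R 4.3.3), comparing Toxf/fPdcd1Cre against Toxf/f without covariates; p-values were Benjamini-Hochberg adjusted over 14121 genes (threshold 0.05). The SE is the log2 fold change divided by the root of the F statistic, and 95% intervals use the fit's degrees of freedom. The log2 scale of FPKM used a pseudocount of 1. DESeq2 1.42.0 and limma 3.58.1 served as alternatives. On simulated counts the test recovered 66% of 200 genes changed 2-fold (7 false calls among 13854 genes) and 93.5% changed 4-fold (8 among 13901).

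Members, lists and tests were chosen with earlier results of these data known. All members were named, then every called gene of the apoptosis lists and the 2 with the highest mean FPKM in each, of which 1 is not reported here; the A1 paralogues, Bmf, Bcl2l14, Cdkn1a, the reading of the apoptosis term, and the block with the shared library as replicate 2 were chosen after seeing the data. Gene positions come from GENCODE M21 (GRCm38), which may differ from the authors' build.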

Additional observations from a re-analysis of the deposited data

Results flagged for a closer look

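Fold changes of 3 of the 10 members pointed in opposite directions at the 2 ages. Every Toxf/fPdcd1Cre library was compared with the Toxf/f library of its age. The difference between ages was not tested. The share of all genes that meet this rule was not computed, so the count is not read as a result about the family. For Bid the log2 differences were -0.14 and -0.10 at 3 weeks and 0.49 at 4 weeks, a gap of 0.61. For Mcl1 they were -0.47 and -0.00 (-0.0047) at 3 weeks and 0.03 at 4 weeks, a gap of 0.27, and for Bak1 -0.01 and -0.04 against 0.14, a gap of 0.17. Each age has 1 Toxf/f library, so these gaps carry the error of single libraries.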

How the results depend on the processing

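Over 18 alternatives the log2 fold change of Bcl2 stayed below 0 and passed the threshold in 15; it missed it with log2(FPKM + 1) and no filter (adjusted p = 0.0959, limma) and without either Toxf/f library. Members called numbered 1 in the reported fit, 2 with no filter, with DESeq2 and with the identical files as 2 libraries (Bcl2 and Pmaip1 each time), 0 with log2(FPKM + 1) and no filter, and 0 to 1 without each library in turn. No label says that replicate numbers pair samples. The deviations of same-numbered libraries correlated at -0.20 and -0.16, and those of Toxf/f replicate 1 and Toxf/fPdcd1Cre replicate 2 at 0.11. With 2 Toxf/f libraries the deviations mirror each other, so these correlations cannot decide whether samples are paired. With a replicate block 2 members were called, Bcl2 and Bcl2l11 (adjusted p = 0.0306, edgeR). With the shared library as replicate 2, chosen after seeing the data, 2 were called, Bcl2 and Pmaip1. All genes called numbered 232 as reported, 417 with no filter, 124 with at least 10 CPM in 2 libraries, 355 with DESeq2, 126 with log2(FPKM + 0.1), 44 with log2(FPKM + 1) and no filter, 125 with age as a covariate, 380 with the identical files as 2 libraries, 435 with the replicate block, 868 with its other numbering, and 31 to 606 without each library. Genes called on the apoptosis lists numbered 4 as reported, 2 with log2(FPKM + 1), with log2(FPKM + 0.1) and with age as a covariate, 0 with log2(FPKM + 1) and no filter, 11 with the block in its other numbering, and 0 to 9 without each library. The sign turned for Bak1 with at least 10 CPM in 2 libraries (-4.08e-05) and without Toxf/fPdcd1Cre replicate 3 (-0.0011), for Bid without Toxf/f replicate 3 (-0.047; up to 0.069 for Bak1 and 0.36 for Bid without other libraries), and for Mcl1 with the block in its other numbering (0.014); the cause was not tested. The log2 difference of the pro-survival to pro-death ratio was -0.08 as reported and ranged from -0.12 to 0.01 without each library, all within the spread between libraries (0.128).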

Other observations

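Over 10711 tested genes with at least 50 counts and above 0.5 FPKM in every library, the log2 count per FPKM, centred on the gene and on each library's median, varied for Bcl2 by 0.035 between the lowest and the highest library, a range above that of 45.7% of genes. For Bbc3 the range was 0.30, above 90.7% of genes, with -0.08 and -0.17 in Toxf/f and 0.05, 0.08 and 0.13 in Toxf/fPdcd1Cre libraries. For Bcl2l11 it was 0.21, above 82.8% of genes, with the lowest value, -0.13, in Toxf/fPdcd1Cre replicate 1. The fold change of Bbc3 read -0.13 on counts and -0.41 on log2(FPKM + 0.1), while that of Bcl2 read -1.08 and -1.13.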
